A study of Homo sapiens with 4 samples.

Results

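Long noncoding RNA (lncRNA) genes of one kind, 22 in number, were listed with one most abundant isoform in both libraries of MDA-MB-231-P3 and with another in both libraries of MDA-MB-231. They are 22 of the 604 eligible genes, which had at least 2 isoform rows and a summed level of at least 3 FPKM in all 4 libraries, and of 46902 lncRNA genes in all. FPKM counts fragments relative to the length of the transcript and to all fragments mapped in that library, so levels of isoforms and of genes can be compared within a library. The isoform with the highest FPKM of its gene in a library is called dominant here. The members were chosen by the isoform values of all 4 libraries, so those values are given as a description, and no test of the isoform change was possible in libraries the choice had not used.

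MDA-MB-231-P3 is a subline of the human cell line MDA-MB-231, which comes from a triple-negative breast cancer. Per the labels' protocols it was obtained by 3 rounds of injection of cells into the tail veins of mice, recovery of cells from lung tumours and expansion in culture, while MDA-MB-231 is the parental line. No other allele, agent or time point was given for either line. Each line had 2 strand-specific libraries, and nothing said whether those came from separate cultures, so the p-values cover a spread between libraries that may be only technical. Whether the subline is 1 clone was not stated. The 14 protein-coding markers looked for as a check of the cell type had 0 rows of their own in this lncRNA table, so the identity of the cells was not checked.

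One lncRNA gene can give many isoforms, through alternative transcription starts, splicing and polyadenylation. Isoforms may keep or lose the stretches that bind proteins, microRNAs or other RNAs. Some lncRNAs are hosts whose introns release small nucleolar RNAs (snoRNAs). A change of the dominant isoform can leave the summed level of a gene as it was. Where isoforms share most of their exons, short reads that fall in shared exons do not tell them apart, and a program divides them by an estimate.

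The count of genes whose dominant isoform differed between the lines was close to the counts for pairings that mix the lines. The same rule was applied to the other ways of pairing the 4 libraries. It held for 22 genes when the subline was set against the parent. It held for 20 genes when both replicates 1 were set against both replicates 2, and for 23 when subline replicate 1 and parental replicate 2 were set against the other two libraries. Those counts are 3.64%, 3.31% and 3.81% of the 604 eligible genes.

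Agreement of single libraries gave a similar picture. The dominant isoform was the same in both MDA-MB-231-P3 libraries for 423 genes, or 70.0% of the 604. For the parental libraries this number was 398, or 65.9%. Between a subline and a parental library it was 404 to 419, or 66.9% to 69.4%, within the range of the same-line pairs. A single isoform was dominant in all 4 libraries for 303 genes (50.2%), 214 genes had 2 different dominant isoforms, 72 had 3 and 15 had 4.

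**Figure D1:**
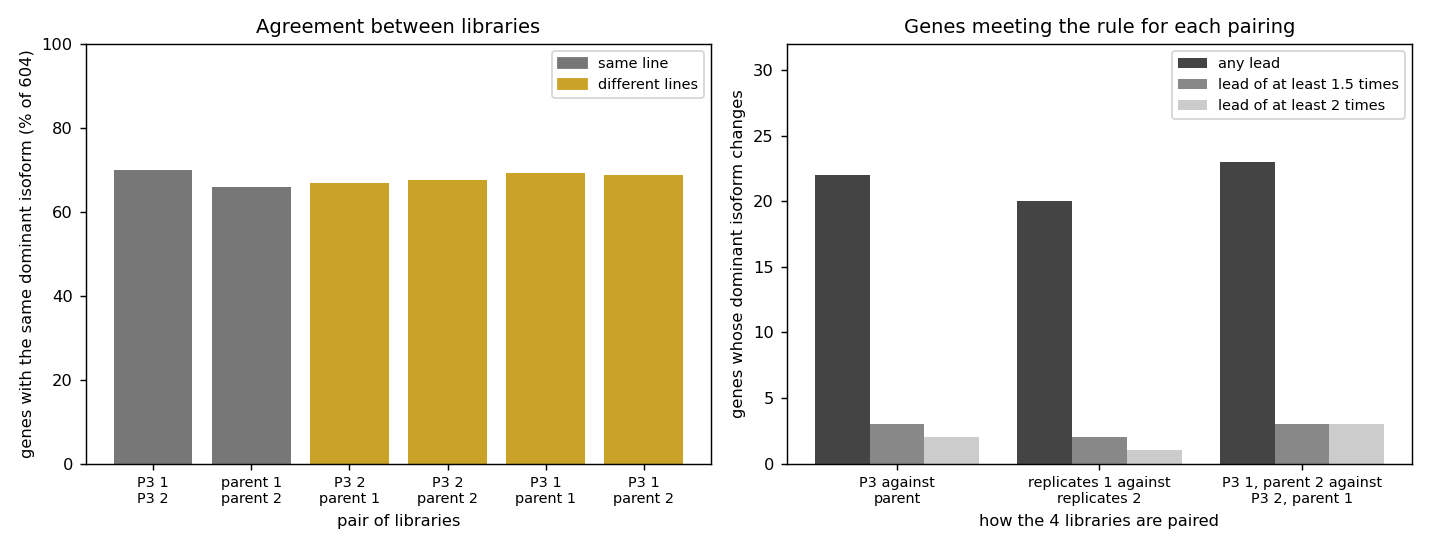
Left, percent of the 604 eligible genes with the same dominant isoform in each pair of libraries, with pairs from the same line in grey and pairs from different lines in yellow. Right, number of genes that meet the rule for each pairing of the 4 libraries, at any lead and at leads of at least 1.5 and 2 times in every library. All 6 pairs lie between 65.9% and 70.0%, and the pairings give 22, 20 and 23 genes.

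Most of the 22 members rested on narrow leads. The weakest lead of a gene is the lowest, over the 4 libraries, of the FPKM ratio of the isoform dominant in that line to the isoform dominant in the other line. Its median was 1.10 times, with a range of 1.00 to 3.15, and it was under 1.1 for 11 members and under 1.25 for 17. A weakest lead of at least 1.5 was reached by 3 members, lnc-TPTE-1, TPT1-AS1 and CD27-AS1, against 2 genes with replicates 1 set against replicates 2 and 3 genes with the third pairing. At a lead of at least 2 the numbers were 2, 1 and 3 genes. When the dominant isoform also had to exceed every other isoform of its gene by 1.5 times in each library, lnc-TPTE-1 was the 1 member left, against 0 and 1 genes for the other pairings.

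**Figure D2:**
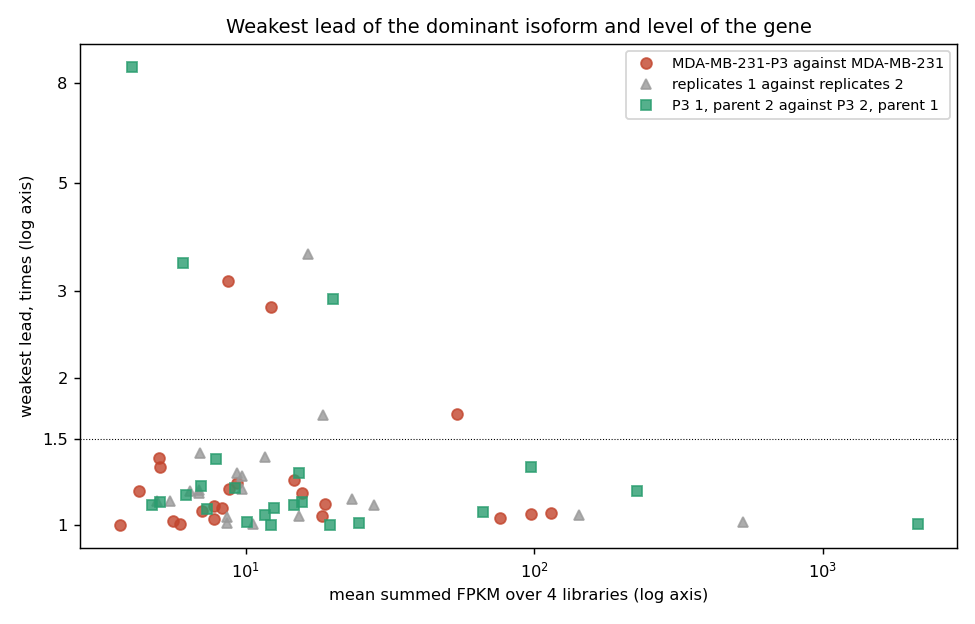
Weakest lead of the dominant isoform (vertical, log axis) against the mean summed FPKM of the gene (horizontal, log axis) for each gene that met the rule, with a symbol for each pairing of the libraries. The dotted line marks a lead of 1.5 times. The 22 genes that differ between the lines lie among those of the other pairings, and 3 of them lie above the line.

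The members had a median of 8 listed isoforms, from 2 to 56, where all 604 eligible genes had a median of 7 and genes with 1 dominant isoform in all libraries a median of 5. Their median level was 8.75 FPKM, against 9.99 FPKM for all eligible genes. The dominant isoform held a median of 45.8% of the summed FPKM in the members, averaged over libraries, against 56.6% in all eligible genes and 72.9% in the genes that kept 1 dominant isoform. The 279 other eligible genes, which neither met the rule nor kept 1 dominant isoform, had a median of 11 isoforms, 9.51 FPKM and a share of 42.3%, so FPKM divided over several isoforms was not particular to the members. Of the 22, 14 had names of the form lnc-GENE-number, which give a neighbouring gene and no function, and 8 had a name of their own. No isoform sequence or coordinate is paired with the isoform numbers in the sources used here, so what distinguishes the isoforms of a gene is not analysed here.

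TPT1-AS1 had the widest difference in balance between its isoforms. It is transcribed antisense to the neighbourhood of TPT1, which encodes translationally controlled tumour protein, and lies at 45915480 to 45992110 of chromosome 13 (hg19, plus strand). TPT1-AS1:38 had 2.77 and 2.46 FPKM in MDA-MB-231-P3, against 0.204 and 1.30 FPKM in MDA-MB-231. TPT1-AS1:64 was listed near 0 in both subline libraries, at 5.43e-05 and 2.87e-07 FPKM, against 3.07 and 3.62 FPKM in the parent. For both isoforms the lines did not overlap. Even so, TPT1-AS1:38 held only 19.1% and 22.7% of the gene in the subline and led the next isoform by as little as 1.11 times, so 1 of 56 isoforms stood slightly above the others. TPT1-AS1 as a whole summed to 14.5 and 10.8 FPKM in the subline and to 13.1 and 10.7 FPKM in the parent, and these ranges overlap.

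CD27-AS1 lies antisense to CD27, the gene of a lymphocyte receptor of the tumour necrosis factor family, at 6548167 to 6560773 of chromosome 12 (hg19, minus strand). Its isoform CD27-AS1:6 stood at 1.73 and 1.76 FPKM in the subline and at 0.439 and 0.790 FPKM in the parent. The parental isoform CD27-AS1:16 was at 0.548 and 1.73e-05 FPKM in the subline and at 4.61 and 5.22 FPKM in the parent. In the parent this isoform held 44.1% and 52.7% of the gene, whereas no isoform of the subline held more than 25.6%. The nearest isoforms below CD27-AS1:6 in the subline were CD27-AS1:3 at 1.44 FPKM in replicate 1 and CD27-AS1:7 at 1.70 FPKM in replicate 2. The balance between both isoforms had the largest weakest lead of all members, 3.15 times. With 0.5 FPKM added to both isoforms this lead was 2.12 times, below the 2.29 of TPT1-AS1.

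The pericentromeric gene family of TPTE, a phosphatase-related gene with near-identical copies, lends its name to lnc-TPTE-1. This lncRNA was the member with the clearest separation at a high level. In MDA-MB-231-P3 lnc-TPTE-1:6 was found at 20.6 and 22.1 FPKM, against 14.8 and 11.8 FPKM in MDA-MB-231. The isoform lnc-TPTE-1:4 was found at 12.2 and 10.9 FPKM in the subline, against 46.1 and 24.3 FPKM in the parent. Both isoforms were separated between the lines, in opposite directions, and the parental libraries lay far apart for lnc-TPTE-1:4. Whether the lncRNA itself has near-identical copies was not examined. Reads from such copies could be divided between them by the authors' processing, so these values may be uncertain. The same holds for lnc-POTEM-4, named for a member of the POTE family.

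In lnc-POTEM-4 the isoform lnc-POTEM-4:2 had 23.1 and 32.6 FPKM in the subline, against 14.7 and 12.2 FPKM in the parent. The isoform dominant in the parent, lnc-POTEM-4:16, was close in both lines, with 21.9 and 22.1 FPKM in the subline and 24.4 and 22.6 FPKM in the parent. The order of the isoforms thus turned with a higher lnc-POTEM-4:2, and the weakest lead was 1.06 times.

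SNHG15, named as a snoRNA host, had lower levels of both isoforms in the subline. It lies at 45022618 to 45026560 of chromosome 7 (hg19, minus strand). SNHG15:27 stood at 15.0 and 13.8 FPKM in MDA-MB-231-P3 and at 20.8 and 20.0 FPKM in MDA-MB-231. SNHG15:8, dominant in the parent, was found at 14.4 and 9.33 FPKM in the subline and at 32.4 and 25.2 FPKM in the parent. All subline values lay below all parental values for both isoforms, and SNHG15:8 was lower by more than SNHG15:27. In subline replicate 1 the isoforms held 26.2% and 25.3% of the gene, a lead of 1.04 times. The 14 transcripts of SNHG15 in the annotation shared a median of 98.2% of the exonic bases of the shorter one between pairs. This was the highest among the members with such a value, and the others ran from 0.0% in DLEU1 to 86.4% in CD27-AS1. These transcripts were not matched to the 32 isoforms of SNHG15 listed here.

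DLEU1, a gene of the chromosome 13 region deleted in chronic lymphocytic leukaemia, differed mainly in its parental isoform. Its locus is chromosome 13, 50656305 to 51480992 (hg19, plus strand). The subline isoform DLEU1:9 had 7.45 and 6.89 FPKM in MDA-MB-231-P3 and 5.94 and 6.92 FPKM in MDA-MB-231, and these overlap. DLEU1:53 stood at 5.77 and 6.22 FPKM in the subline and at 11.5 and 9.63 FPKM in the parent. It held 29.6% and 33.8% of the gene in the subline, against 58.4% and 54.4% in the parent. The summed level was 18.9 ± 0.745 FPKM in the subline and 18.7 ± 1.45 FPKM in the parent (SD, n = 2 each), so a similar total was divided differently.

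**Figure D3:**
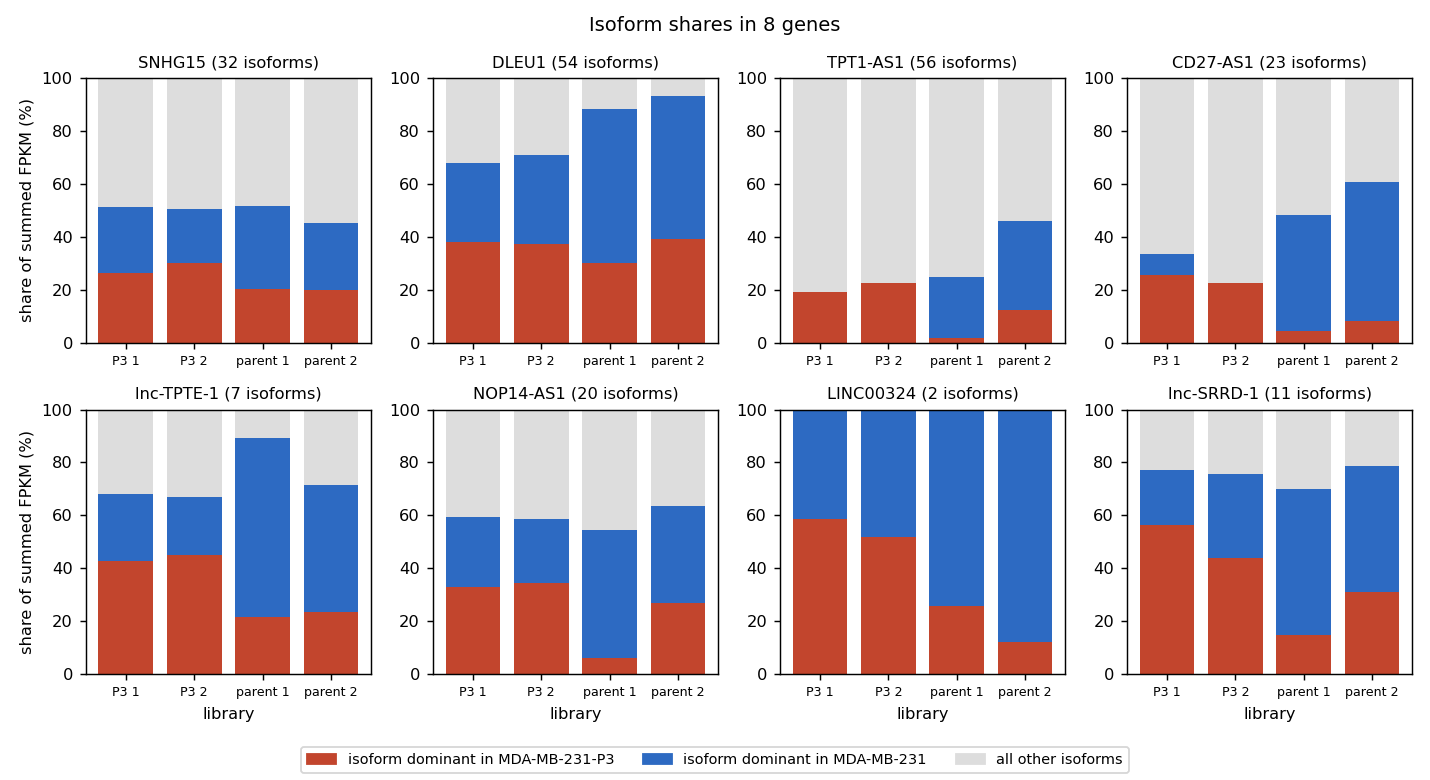
Share of the summed FPKM held by the isoform dominant in MDA-MB-231-P3 (red), by the isoform dominant in MDA-MB-231 (blue) and by all other isoforms (grey) in each library of 8 genes, chosen after their values were seen. In TPT1-AS1 and CD27-AS1 the blue share is largely absent from the subline libraries, and in SNHG15 each of both isoforms holds between 20.0% and 31.6% in every library.

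RAB30-AS1 is a divergent transcript of RAB30, which encodes a small GTPase of the Golgi, and the annotation lists it under its synonym RAB30-DT at 82783094 to 82818831 of chromosome 11 (hg19, plus strand). The subline isoform RAB30-AS1:29 was found at 5.49 and 4.95 FPKM in MDA-MB-231-P3, against 2.42 and 0.370 FPKM in MDA-MB-231. The parental isoform RAB30-AS1:9 had 5.26 and 1.81 FPKM in the subline, against 10.2 and 8.11 FPKM in the parent. Neither isoform overlapped between the lines in FPKM, but the replicates of a line were far apart. In subline replicate 1 the lead was 1.04 times. The summed level was also lower in the subline, at 13.9 and 14.2 FPKM against 22.0 and 23.6 FPKM in the parent. As a share of the gene RAB30-AS1:9 overlapped, with 37.7% and 12.8% in the subline and 46.4% and 34.4% in the parent. A further isoform, RAB30-AS1:28, had 0.245 and 3.71 FPKM in the subline, against 2.46 and 4.01 FPKM in the parent, so its subline libraries lay far apart.

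NOP14-AS1 lies antisense to NOP14, a gene of ribosome assembly, at 2936609 to 2963465 of chromosome 4 (hg19, plus strand). NOP14-AS1:15 stood at 3.50 and 4.65 FPKM in the subline and at 0.960 and 4.94 FPKM in the parent. That isoform overlapped between the lines and differed most between the parental libraries. NOP14-AS1:4 was found at 2.82 and 3.29 FPKM in the subline and at 7.91 and 6.79 FPKM in the parent, with no overlap.

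LINC00839 and LINC00324 are intergenic lncRNAs whose parental isoforms were lower in the subline. LINC00324 is at 8123942 to 8127361 of chromosome 17 (hg19, minus strand), and LINC00839 is at 42970928 to 42990785 of chromosome 10 (hg19, plus strand). LINC00324:3 had 1.30 and 1.54 FPKM in MDA-MB-231-P3 and 9.28 and 8.29 FPKM in MDA-MB-231. LINC00324:4 stood at 1.84 and 1.65 FPKM in the subline and at 3.19 and 1.13 FPKM in the parent, which overlap. The subline isoform was thus dominant at a level that overlapped that of the parent, and held 58.7% and 51.7% of the gene. For LINC00839 the subline isoform LINC00839:15 was found at 2.81 and 2.78 FPKM in the subline, against 3.43 and 3.19 FPKM in the parent. LINC00839:16 had 1.85 and 2.50 FPKM in the subline, against 3.85 and 3.49 FPKM in the parent. Its weakest lead was 1.10 times.

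Among the members named for neighbours, lnc-CCDC28A-1 had a parental isoform that was almost absent from the subline. In MDA-MB-231-P3, lnc-CCDC28A-1:3 had 0.00745 and 0.00520 FPKM and held 0.0568% and 0.0390% of the gene. It held 31.9% and 30.8% in MDA-MB-231. The levels of lnc-CCDC28A-1:10, dominant in the subline, were 4.91 and 4.18 FPKM in the subline and 4.30 and 5.12 FPKM in the parent, and these overlap. In lnc-IL17RA-33 the parental isoform lnc-IL17RA-33:5 was near 0 in subline replicate 1 and at 0.366 FPKM in subline replicate 2, against 2.55 and 2.41 FPKM in the parent. In the parent, however, lnc-IL17RA-33:6 was found at 1.45 and 2.36 FPKM, and in parental replicate 2 the ratio of the isoforms was only 1.02.

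Genes with 2 listed isoforms gave the simplest balances. lnc-UPK3B-5:7 stood at 11.04 and 7.12 FPKM in the subline and at 0.000946 and 2.73 FPKM in the parent, where one library listed it near 0 and the other did not. The isoform lnc-UPK3B-5:1 was also higher in the subline, at 5.58 and 4.04 FPKM against 3.53 and 3.33 FPKM in the parent. lnc-USP33-1:3 was found at 7.01 and 3.12 FPKM in the subline and at 1.69 and 1.59 FPKM in the parent, and lnc-USP33-1:2 at 1.87 and 3.11 FPKM in the subline and at 2.66 and 2.60 FPKM in the parent. In subline replicate 2 these isoforms held 50.1% and 49.9% of the gene. Together with LINC00324 and lnc-UPK3B-5, lnc-USP33-1 was one of the 3 members whose dominant isoform held over 50% in every library. These are the 3 members with 2 listed isoforms, where the higher isoform holds over 50% by arithmetic. No member with more isoforms reached this.

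The most abundant member was lnc-VSTM5-1, at 112 and 109 FPKM in the subline and 117 and 120 FPKM in the parent. lnc-VSTM5-1:13 held 45.5% and 43.96% of it in the subline and 38.3% and 29.7% in the parent. lnc-VSTM5-1:14 held 33.4% and 32.05% in the subline and 40.6% and 52.1% in the parent. The shares did not overlap, and the parental libraries lay further apart than the subline from parental replicate 1.

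The other members were lower and had modest leads. lnc-SRRD-1:1 had 2.08 and 1.86 FPKM in the subline and 1.16 and 1.31 FPKM in the parent, while lnc-SRRD-1:6 was at 0.775 and 1.35 FPKM in the subline and at 4.35 and 2.02 FPKM in the parent. lnc-TNK2-2:9 held 45.6% and 41.0% of its gene in the subline and 30.7% and 29.3% in the parent. The weakest leads of these genes, 1.37 and 1.31, were the largest after the 3 members named above. lnc-WDR73-3, lnc-ALDH3B2-3, lnc-NEK3-1, lnc-NKAP-4 and lnc-COX10-1 had weakest leads of 1.19, 1.17, 1.08, 1.03 and 1.00. In lnc-NKAP-4 both isoforms were higher in the subline, where lnc-NKAP-4:4 was found at 5.74 and 3.29 FPKM against 2.77 and 1.56 FPKM in the parent. In lnc-COX10-1 the isoforms stood at 40.8% and 40.9% of the gene in parental replicate 1.

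**Figure D4:**
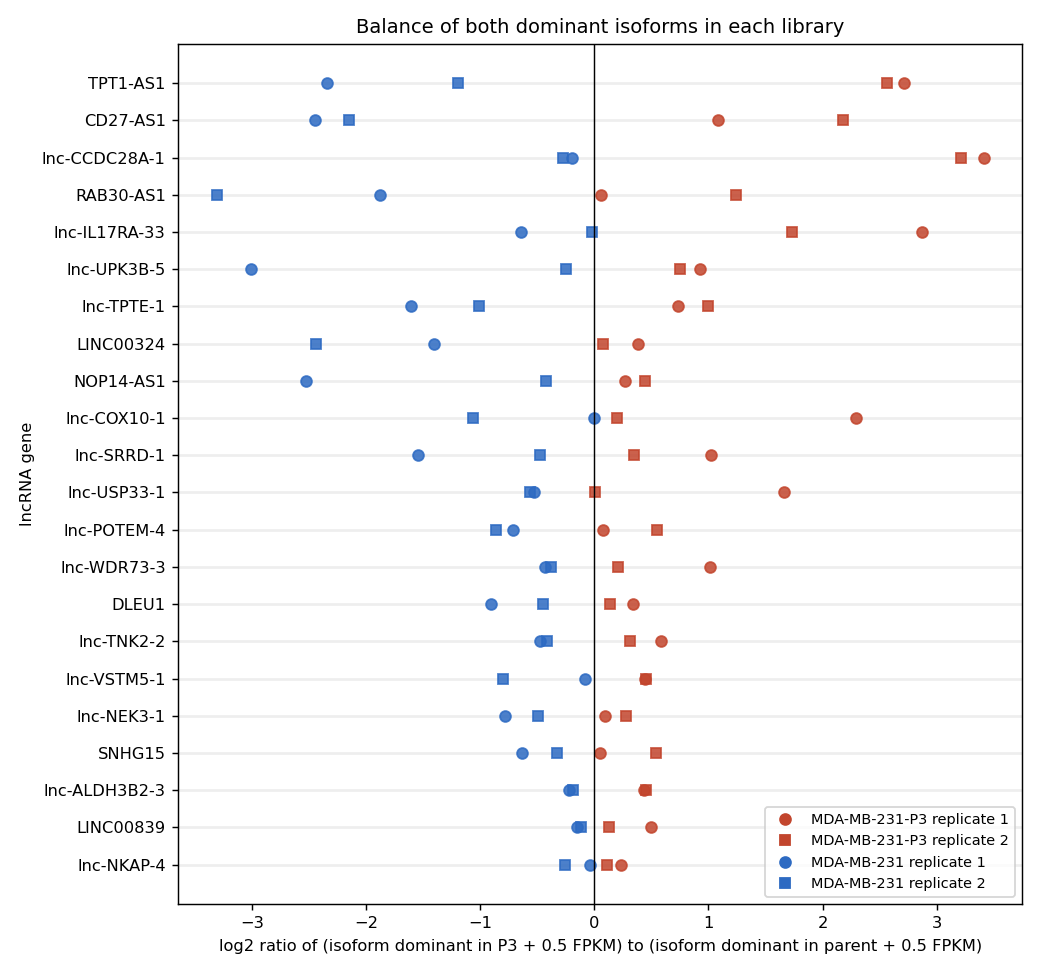
Log2 ratio of the isoform dominant in MDA-MB-231-P3 to the isoform dominant in MDA-MB-231, after 0.5 FPKM was added to both, for each library of the 22 genes, in order of the mean subline minus mean parental ratio. By the choice of members, subline libraries (red) lie right of 0 and parental libraries (blue) left of it, and only in TPT1-AS1 and CD27-AS1 are all 4 libraries more than 1 from 0.

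The mean log2 ratio of the subline minus that of the parent ranged from 0.32 in lnc-NKAP-4 to 4.41 in TPT1-AS1, with a median of 1.54 over the 22 members. These sizes depend on the 0.5 FPKM added: for TPT1-AS1 it was 7.16 with 0.1 FPKM and 3.24 with 1 FPKM. For lnc-NKAP-4 it was 0.21 without parental replicate 2. Counted by the level of each isoform, 9 members had a higher subline isoform together with a lower parental isoform, with no overlap between the lines in either. A further 7 had only the parental isoform separated in the direction of the choice, and 5 had only the subline isoform separated in that direction. Among these 5, the parental isoforms of lnc-UPK3B-5 and lnc-NKAP-4 were also higher in the subline without overlap. In lnc-ALDH3B2-3 neither isoform was separated. Of all 8432 tested isoforms, 27.3% were higher and 20.7% lower in the subline without overlap. The rule used the same values, so these counts describe the members and nothing is read from them.

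The limma test over all isoforms, which used this contrast as well, called 0 of the 44 dominant isoforms of the members. Over the whole table it called 0 of 8432 isoforms (percent called 0), and the smallest adjusted p among the 44 was 0.111 for lnc-CCDC28A-1:3. An unadjusted p under 0.05 was reached by 13 of the 44, and by 1124 of the 8432 tested isoforms (13.3%). The share was larger among the 44, and nothing is read from it, since the rule used the same contrast. Read depth was unknown, so isoform levels carry no interval for counting error.

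The summed level of a gene adds up the FPKM of the same isoform rows, and its minimum of 3 FPKM was part of the rule. Of the 22 members, 6 had higher and 10 lower summed levels in both subline libraries than in both parental libraries, and 6 overlapped. Among the 6444 tested genes 28.9% were higher and 21.4% lower in this way, and among the 604 eligible genes 24.3% and 32.5%. The median log2 difference of the members was -0.04, against 0.09 for all tested genes and -0.09 for the eligible ones. All lncRNA isoforms together summed to 351135 and 372689 FPKM in the subline and to 460282 and 500086 FPKM in the parent. How far this difference in totals enters the levels of single genes was not tested. With limma, 0 of the 22 members were called, where the whole table gave 4 genes (0.0621%). An unadjusted p under 0.05 was reached by 4 of the 22 members, against 978 of the 6444 tested genes (15.2%).

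The largest summed differences among the members were those of LINC00324 and lnc-UPK3B-5. LINC00324 summed to 3.14 and 3.19 FPKM in MDA-MB-231-P3 and to 12.5 and 9.42 FPKM in MDA-MB-231, a log2(FPKM + 0.5) difference of -1.63 (SE 0.28, limma adjusted p = 0.256). lnc-UPK3B-5 summed to 16.6 and 11.2 FPKM in the subline and to 3.53 and 6.06 FPKM in the parent, a difference of 1.46 (SE 0.39, limma adjusted p = 0.268). SNHG15 averaged 51.4 ± 8.11 FPKM in the subline and 101 ± 2.07 FPKM in the parent (SD, n = 2 each), a difference of -0.98 (SE 0.27, limma adjusted p = 0.272). The lines did not overlap in these genes, and none passed the test. Both members with the largest weakest lead had smaller summed differences, 0.08 for TPT1-AS1 (SE 0.29, limma adjusted p = 0.905) and -0.47 for CD27-AS1 (SE 0.25, limma adjusted p = 0.446). In bulk libraries, fewer cells with an isoform and less of it per cell cannot be told apart.

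**Figure D5:**
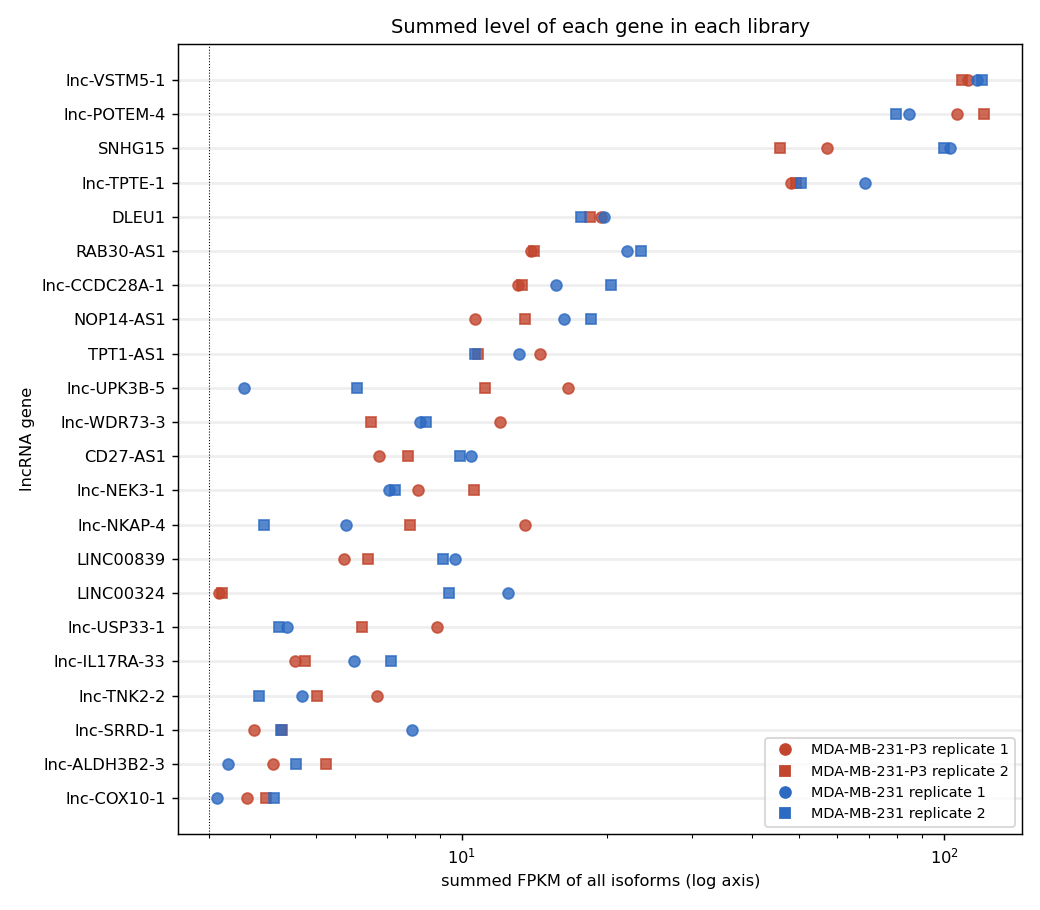
Summed FPKM of all isoforms (log axis) of each of the 22 genes in each library, with MDA-MB-231-P3 in red and MDA-MB-231 in blue, and the minimum of 3 FPKM as a dotted line. LINC00324 and SNHG15 lie to the left of the parent in the subline and lnc-UPK3B-5 to the right, while the symbols of TPT1-AS1 and DLEU1 overlap.

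Known lncRNAs were counted on 4 lists, of which 2 held members. Of 28 eligible genes on the snoRNA host list, 15 kept 1 dominant isoform in all libraries (53.6%, against 50.2% of all eligible genes), 2 were members (SNHG15 and NOP14-AS1, 7.14%) and 11 varied otherwise. The annotation lifted to hg19 listed 0 snoRNAs on the same strand within SNHG15 or NOP14-AS1. That count covers only snoRNAs present in this annotation, and whether it misses some was not checked. It therefore does not show that these genes host none. On the list of cancer-linked lncRNAs, 29 were eligible, 15 kept 1 isoform (51.7%) and 3 were members (SNHG15, DLEU1 and LINC00839, 10.3%). Of 9 eligible microRNA hosts 3 kept 1 isoform and 0 were members, and of 6 antisense lncRNAs of regulators 2 kept 1 and 0 were members. Over all lists 4 of 63 eligible genes were members (6.35%), against 3.64% of all 604, a difference that was not tested. Eligible genes on a list with 1 isoform throughout included SNHG3, where SNHG3:6 held 99.9% or more of the gene in every library, SNHG10, at 99.1% and 99.6% in the subline and 99.3% and 99.7% in the parent, and MALAT1, at 46.0% and 43.6% in the subline and 37.0% and 57.1% in the parent.

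The minimum of 3 FPKM set which genes are members at the low end. Just inside it, lnc-COX10-1, LINC00324 and lnc-ALDH3B2-3 had lowest summed levels of 3.11, 3.14 and 3.28 FPKM. Just outside it were lnc-EXOSC9-6 at 2.94, DHRS4-AS1 at 2.91 and ATP6V0E2-AS1 at 2.57 FPKM, which met the rest of the rule. Of lnc-EXOSC9-6:1 there were 10.03 and 7.30 FPKM in the subline, against 8.13e-05 and 0.0415 FPKM in the parent, with no overlap.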

How the data were processed

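The files hold FPKM of lncRNA isoforms in 4 libraries, as deposited. Alignment to hg19 with HISAT2 and scaling to FPKM were done by the authors, per the labels' protocols, and the submitters' processing notes also name StringTie. Not given in the sources used here were the versions, the annotation and how reads were divided among isoforms. The division is an estimate, so an isoform near 0 may be a failed one. Each sample's own file equalled the series table in all values, and 0 further columns of per-sample values were present. The gene is the name before the last colon and number. Members, lists and tests were chosen with earlier results of these data known.

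Shares, leads and log2 ratios (0.5 FPKM added) were computed with Python 3.11.15, pandas 2.3.3 and numpy 2.4.6, and drawn with matplotlib 3.10.9. Isoforms and summed genes with a mean of at least 0.5 FPKM entered limma 3.58.1 (R 4.3.3) as log2(FPKM + 0.5) (trend, no block, two-sided, Benjamini-Hochberg, threshold 0.05), and the code was tested on simulated data. Depth is unknown. The rule for named genes took the 12 members of highest level, the 12 of largest weakest lead, members with their own name or on a list, those nearest the limits and 3 listed genes that kept 1 isoform. It named 20 of the 22 members, and the other 2, lnc-NEK3-1 and lnc-NKAP-4, were added after their values were seen. Loci came from GENCODE release 44 lifted to hg19, which held 7 of the 8 members with their own name, and the other matched through a RefSeq synonym. Alternatives were other minima, leads, shares, pseudocounts, filters and normalizations, no trend, the replicate block and leaving out each library.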

Additional observations from a re-analysis of the deposited data

How the results depend on the processing

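The count of 22 members depended on every limit tried. It was 51 with a minimum summed level of 1 FPKM, 9 with 10 FPKM, 3 with a lead of at least 1.5 times, 2 with a lead of at least 2 and 158 when the isoform of highest mean was taken for each line, which drops the need for both libraries to agree. It was 1 when the lead over every other isoform had to be 1.5 times, a limit chosen after seeing the data. Without single libraries it was 61 to 89, since 1 library then stands for a line: 73 without MDA-MB-231-P3 replicate 1, 61 without MDA-MB-231-P3 replicate 2, 84 without MDA-MB-231 replicate 1 and 89 without MDA-MB-231 replicate 2. All 22 were among them each time by construction. The 3 members with a dominant isoform over 50% in every library all have 2 listed isoforms, where this holds by arithmetic. Their count became 13 with a minimum of 1 FPKM and 13 to 19 without single libraries (13, 15, 16 and 19 in the same order). It became 0 with a minimum of 10 FPKM or with any of the leads, 10 with a share over 40% and 0 with a share over 60%.

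The count of 0 isoforms called by limma was 6 with a minimum mean of 1 FPKM and 0 in all other alternatives. The 4 summed genes, none a member, became 0 with a pseudocount of 1, without the filter, without the trend or without any single library, where the lone library of a line is assumed to vary like the other line, and 2 with quantile normalization. A replicate block left 0 isoforms and 0 summed genes called. The deviations of same-numbered libraries had a correlation of 0.078 over genes, so the numbers were not taken as pairs. The cause of these differences was not tested. Of 132 differences in isoform balance under other pseudocounts or without single libraries, 0 changed sign, since the rule of membership allows no other sign. By more than the spread between replicates 13 moved, all with another pseudocount. Leaving out 1 of 2 libraries moves the mean of a line by less than their SD, so this too was largely set in advance. Neither count is a check of the members. Of the members' summed differences under other settings, 12 of 176 had the other sign, all in lnc-VSTM5-1, DLEU1, TPT1-AS1, lnc-WDR73-3 and lnc-COX10-1, whose differences were small.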

Other observations

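Genes outside the members showed isoform differences as wide that did not follow the lines. They were picked after their values were seen. LOXL1-AS1 had a weakest lead of 3.58 times when both replicates 1 were set against both replicates 2. lnc-TBC1D22A-4, with subline replicate 1 and parental replicate 2 set against the others, had one of 8.62 times, above the 3.15 of CD27-AS1. In the same pairing lnc-MASTL-3 had a weakest lead of 3.43 and PCBP1-AS1, with 286 listed isoforms, one of 2.90. Over the next isoform of the gene the leads were smaller. At their lowest these were 1.01 times in LOXL1-AS1, 1.69 in lnc-TBC1D22A-4, 1.06 in lnc-MASTL-3 and 1.23 in PCBP1-AS1.

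At the far end, 15 eligible genes had a different dominant isoform in each of the 4 libraries. SNHG17, a snoRNA host with 19 isoforms, was the most abundant of these, and its dominant isoform held 20.0% and 18.5% of the gene in MDA-MB-231-P3 and 17.7% and 24.5% in MDA-MB-231. In lnc-AGAP5-6 the summed level was 5.93 and 25.6 FPKM in the subline and 9.43 and 6.27 FPKM in the parent, and subline replicate 2 alone gave the high value.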
